A study of Mus musculus with 105 samples.

Results

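Splicing factors are the proteins that cut introns out of nuclear RNA, and 52 of their genes are described here across ribosome footprints, mRNA and poly(A) tail lengths of mouse oocytes. The genes were chosen by name, as all those written Srsf, Hnrnp, Snrp, Sf3a or Sf3b followed by their member letters or numbers in all the deposited tables. This gave 52 of 20756 gene names with footprint and mRNA values: 11 SR proteins, 20 hnRNP proteins, 12 snRNP proteins and 9 SF3 subunits. Another matching name, Snrpert, stood only in the tail table, with no tail value in any library, and RefSeq lists it as a pseudogene.

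SR proteins carry RNA recognition motifs and arginine-serine repeats, and most of them bind exons and favour their inclusion. The hnRNP proteins coat nascent RNA, and many oppose splice site use or act in RNA export, stability and translation. The Sm proteins Snrpb, Snrpd1, Snrpd2, Snrpd3, Snrpe, Snrpf and Snrpg form the ring on spliceosomal small nuclear RNAs, Snrpn can take the place of Snrpb in that ring, Snrpa and Snrpc belong to U1, and Snrpa1 and Snrpb2 to U2. SF3a and SF3b are parts of the U2 particle that hold the intron's branch point. A full-grown oocyte (FGO) has an intact nucleus and has ended most transcription, while a mature oocyte arrested in metaphase II (MII) has no nucleus and lives on stored messages. BTG4 links the CCR4-NOT deadenylase to maternal messages, which then lose their tails and are removed during maturation.

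The groups used were as follows. Single wild-type oocytes gave 20 MII and 18 FGO libraries of ribosome-protected fragments. MII oocytes labelled Btg4 KO or Btg4 Het gave 3 footprint and 2 mRNA libraries for each genotype. Tail lengths came from 2 Btg4 KO, 1 Btg4 Het and 1 wild-type MII library and from 1 wild-type FGO library, which carries the further label SN. The shared protocol names C57BL/6 females of 8 or 5 weeks given 5 IU PMSG and 5 IU hCG, without the age for each sample. The labels give neither the deleted part of Btg4 nor the number of oocytes or animals in a library. With no animals named, each stage of the single oocytes was treated as 1 sample, and differences between the stages are given as values with no test. For the Btg4 libraries, p-values measure the spread between libraries, which may be technical.

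Promoter windows of 7 of these genes are shown, because 5 of them rose in both mRNA and footprints of KO oocytes and the other 2 had the lowest and highest MII to FGO ratio. Each runs from 60 bases before the RefSeq start site through the first 20 bases from it, read 5′ to 3′ on the gene's strand. Capitals mark matches to CGGAAG or CTTCCG, the core bound by ETS factors, and to GGGCGG or CCGCCC, the GC box.
Snrpc: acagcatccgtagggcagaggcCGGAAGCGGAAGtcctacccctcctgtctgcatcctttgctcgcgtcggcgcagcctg
Srsf9: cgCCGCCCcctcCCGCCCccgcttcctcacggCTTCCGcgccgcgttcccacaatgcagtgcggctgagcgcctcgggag
Srsf2: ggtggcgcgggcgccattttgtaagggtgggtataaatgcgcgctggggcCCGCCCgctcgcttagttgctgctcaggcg
Sf3a3: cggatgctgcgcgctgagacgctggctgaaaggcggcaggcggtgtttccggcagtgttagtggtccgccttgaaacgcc
Hnrnpd: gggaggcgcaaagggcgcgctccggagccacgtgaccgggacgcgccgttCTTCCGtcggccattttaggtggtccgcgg
Snrpd2: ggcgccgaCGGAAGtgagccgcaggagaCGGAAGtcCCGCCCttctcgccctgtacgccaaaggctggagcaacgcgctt
Snrpb2: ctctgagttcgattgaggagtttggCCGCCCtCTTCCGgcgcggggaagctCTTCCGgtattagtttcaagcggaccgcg
The windows lie on GRCm38.p6, Snrpc at chr17:27840027-27840106 (+ strand), Srsf9 at chr5:115327117-115327196 (+ strand), Srsf2 at chr11:116853075-116853154 (- strand), Sf3a3 at chr4:124714801-124714880 (+ strand), Hnrnpd at chr5:99978919-99978998 (- strand), Snrpd2 at chr7:19149778-19149857 (+ strand) and Snrpb2 at chr2:143063009-143063088 (+ strand). RefSeq promoters of 300 bases matched 46 of the 52 names, and Hnrnpll, Hnrnpul2, Sf3b4, Sf3b5, Snrpb and Snrpd1 had none. The letters CGGAAG, on either strand, stood in 24 of these 46 promoters (52.2%), against 17.2% of all 27025 promoters and 34.3% of the 7154 whose genes were tested for mRNA. All 7 matched SF3 subunits held them, and so did 7 of 10 snRNP, 5 of 11 SR and 5 of 18 hnRNP genes. CCAAT, on either strand, stood in 22 of 46 (47.8%), against 37.9% of all and 40.7% of genes tested for mRNA. By family it stood in 12 of 18 hnRNP, 4 of 11 SR, 4 of 10 snRNP and 2 of 7 SF3 promoters. GGGCGG, on either strand, stood in 32 of 46 (69.6%), against 35.9% of all and 64.4% of genes tested for mRNA. CGGAAG and GGGCGG can share bases where they meet. A match describes letters, not binding.

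Values are FPKM, fragments per kilobase of transcript scaled to the library's reads by the authors. All 12 oocyte markers had a median above 0 in every group. Summed follicle cell markers (15 genes) spanned 0 to 42.6 FPKM in MII and 0 to 138 FPKM in FGO oocytes, with 4 markers in MII and 1 in FGO at 0 throughout. Summed blood and immune markers (10 genes) spanned 0 to 90.2 FPKM in MII and 0 to 651 FPKM in FGO, with 5 markers in MII and 0 in FGO at 0 throughout. MII oocytes 2 and 4 were closer to FGO than to the other MII oocytes, with median Spearman correlations to FGO of 0.517 and 0.538, and to the other MII oocytes of 0.497 and 0.461. Low FPKM values step in whole reads for 9869 genes, 29 splicing factors among them. Over these genes the estimated reads were 19910 to 93850 per MII and 36500 to 328799 per FGO oocyte, and 221510 to 385050 per KO and 130997 to 427867 per Het footprint library. Btg4 itself checked the labels: its footprints were 907 to 1148 FPKM in KO and 6134 to 7009 FPKM in Het, and its mRNA 1754 to 2345 FPKM in KO and 3293 to 4774 FPKM in Het.

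Maturation was examined first, in the single oocytes. Footprints on hnRNP messages and on most Sm ring messages made up more of the total in MII than in FGO, and among SF3 messages Sf3b5 made up less. All 52 genes together held 0.872% to 2.07% (median 1.37%) of summed footprint FPKM in MII oocytes and 0.497% to 1.28% (median 0.821%) in FGO. The SR share was 0.0394% to 0.145% (median 0.0903%) in MII and 0.0297% to 0.183% (median 0.0448%) in FGO. Sm ring proteins, Snrpn included, held 0.403% to 1.24% (median 0.797%) in MII and 0.219% to 0.896% (median 0.467%) in FGO. The hnRNP share was 0.270% to 0.519% (median 0.376%) in MII and 0.0871% to 0.494% (median 0.144%) in FGO, while the SF3 share was 0.0302% to 0.143% (median 0.0568%) in MII and 0.0250% to 0.166% (median 0.0944%) in FGO. Without Sf3b5 the SF3 share was 0.0302% to 0.0644% (median 0.0439%) in MII and 0.0139% to 0.0674% (median 0.0256%) in FGO, so the lower SF3 share in MII rests on Sf3b5. Few reads lie behind that gene. Sf3b5 was above 0 in 11 of 20 MII and 17 of 18 FGO oocytes, with an estimated median of 1 read per MII and 9.5 reads per FGO oocyte. The ranges of all these shares overlap between stages.

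Of the 52 genes, 51 passed a mean of 1 FPKM over the stage means, and Srsf12, an SR protein listed above 0 in 0 MII and 3 FGO oocytes, did not. Of these 51, 24 had at least 2-fold higher and 7 at least 2-fold lower mean footprints in MII, on the scale log2(mean FPKM + 1), against 27.8% and 31.6% of all 8818 genes that passed. Among the families the higher and lower counts were 12 and 2 of 20 hnRNP, 5 and 3 of 12 snRNP, 3 and 1 of 10 SR and 4 and 1 of 9 SF3 genes. The median log2 ratio was 0.83 for splicing factors and -0.18 for all genes. When oocytes listing hemoglobin were left out, so that 19 MII and 9 FGO oocytes remained, the counts were 29 higher and 3 lower, against 32.9% and 27.2% of all genes, whose median was then 0.09. Scaling changed the counts most. When each oocyte was scaled to the median of its values above 0, 5 were higher and 20 lower. Of all genes 13.0% were then higher and 55.5% lower. The median was -0.50 for splicing factors and -1.21 for all genes. The direction of the group as a whole therefore flips with this scaling, whereas its distance above the median of all genes was 1.01 as deposited and 0.71 after scaling.

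The genes with the highest MII to FGO ratios follow, given as lowest, median and highest oocyte and then mean ± SD (n = 20 MII and 18 FGO). Snrpb2, the U2 protein whose promoter has paired CTTCCG letters, had 35.0, 169.8 and 477 FPKM in MII and 3.72, 11.5 and 44.9 FPKM in FGO. Its means were 175 ± 112 FPKM in MII and 16.3 ± 12.9 FPKM in FGO, a log2 ratio of 3.35, and MII was higher in 98.9% of the MII-FGO pairs. In all such shares a pair with both oocytes at 0 counts as not higher. Hnrnpk, which binds cytosine-rich RNA, had 87.8, 275 and 491 FPKM in MII and 4.99, 18.1 and 117 FPKM in FGO, a log2 ratio of 3.12 with MII higher in 99.4% of pairs. For both genes only the highest FGO oocytes reach the lowest MII values, and every oocyte was above 0. Sf3b1, the large scaffold of SF3b, had 12.3, 60.8 and 125 FPKM in MII and 1.64, 12.1 and 32.9 FPKM in FGO (log2 ratio 2.201, 96.1% of pairs). Its 8 partner subunits had ratios between -1.16 for Sf3b5 and 1.77 for Sf3b4.

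Among Sm ring proteins the members split. Snrpd3 averaged 601 ± 279 FPKM in MII and 144 ± 101 FPKM in FGO (log2 ratio 2.05), and Snrpd1 averaged 321 ± 179 FPKM in MII and 77.5 ± 51.9 FPKM in FGO (log2 ratio 2.04). Snrpe had a ratio of 1.60, and Snrpf and Snrpg, at 0.68 and 0.64, were higher in MII in only 67.2% and 64.2% of pairs. Snrpd2, which pairs with Snrpd1 in the ring, lay on the other side. It had 0, 0 and 55.6 FPKM in MII and 8.31, 66.3 and 192 FPKM in FGO, with 3 of 20 MII and 18 of 18 FGO oocytes above 0 and a log2 ratio of -3.51. MII oocytes 2 and 4, which stand near FGO, are among those 3 at 13.7 and 55.6 FPKM, and without them the ratio was -4.56. Snrpb, the other ring protein with a lower level in MII, was above 0 in 4 of 20 MII and 12 of 18 FGO oocytes (log2 ratio -1.54).

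Other hnRNP proteins with high ratios were Hnrnpa0 at 2.36, Hnrnpab at 2.10, Hnrnpc, which binds uridine tracts, at 1.97 and Hnrnpdl at 1.96. Hnrnpa0 rests on fewer oocytes, being above 0 in 14 of 20 MII and 13 of 18 FGO, with MII higher in 66.7% of pairs. Srsf7 had the highest ratio among SR proteins, 2.16, with 69.0 ± 41.5 FPKM in MII and 14.6 ± 20.2 FPKM in FGO. At the low end stood Hnrnpul1 at -1.47 and Hnrnpll at -1.15, above 0 in 5 and 4 of 20 MII and 15 and 14 of 18 FGO oocytes. Sf3b5 averaged 80.1 ± 121 FPKM in MII and 180.2 ± 145 FPKM in FGO (log2 ratio -1.16). The U1 protein Snrpc stood at -1.01, and Srsf1, Sf3b3 and Srsf9 at -0.94, -0.90 and -0.75. Srsf11 had a ratio of -1.60 that rests on FGO oocyte 1 at 383 FPKM: without it the ratio was -0.14, the stage medians gave 1.76, and MII was higher in 62.8% of pairs. When oocytes listing hemoglobin were left out, the ratio was 0.31 for Hnrnpul1 and 2.09 for Srsf11.

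**Figure D1:**
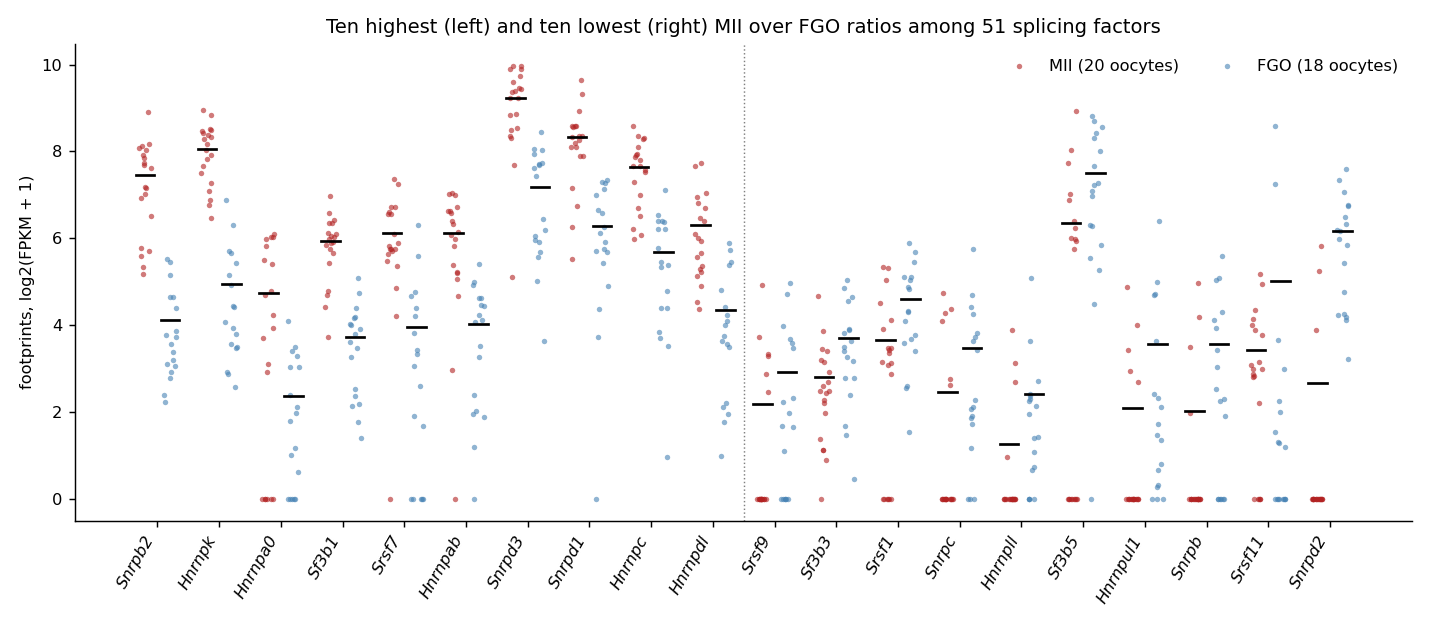
Footprints of the 10 splicing factors with the highest and the 10 with the lowest MII over FGO ratio, as log2(FPKM + 1) on the vertical axis; each point is 1 oocyte, MII left of FGO, and the black line marks log2 of the mean FPKM + 1. Snrpb2 and Hnrnpk barely overlap between stages, while Snrpd2 lies at 0 in all but 3 of 20 MII oocytes.

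The order of levels was led by the Sm ring in both stages. Per length, the 5 highest mean footprints in MII were Snrpg at 835, Snrpe at 629, Snrpd3 at 601, Snrpf at 510.3 and Snrpd1 at 321 FPKM. In FGO they were Snrpg at 536, Snrpf at 319, Snrpe at 207, Sf3b5 at 180.2 and Snrpd3 at 144 FPKM. Neighbours in these orders differ by less than the larger of their 2 SDs, which run from 179 to 628 FPKM among the 5 in MII and from 101 to 369 FPKM among the 5 in FGO. Sm proteins are short, so few reads lie behind these values: Snrpg held an estimated median of 20 reads per MII and 40 reads per FGO oocyte.

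The Btg4 libraries ask which messages differ when the deadenylation adaptor is lost. FPKM are relative within a library, so a change in 1 message and a change in all the others, or in RNA per oocyte, cannot be told apart. In KO oocytes the mRNA of 10 of 50 tested splicing factors rose and that of 2 fell (limma on log2(FPKM + 1), adjusted p below 0.05, n = 2 each). The share that rose is near the background, 18.9% of all 8865 genes, and 0.62% of all genes fell. The median log2 change was -0.02 for splicing factors and 0.14 for all genes. With each library scaled to its median, which moves the median of all genes to -0.27, 5 rose and 8 fell. Over all genes 988 rose and 939 fell in that run. With quantile normalization, which moves the all-gene median to -0.22, 6 rose and 4 fell. Over all genes 1103 then rose and 644 fell. KO and Het libraries did not overlap for 15 genes that were higher and 16 that were lower in KO, against 38.9% and 22% of all genes. Summed follicle cell markers were 8.15 to 8.50 FPKM in KO and 13.6 to 14.4 FPKM in Het mRNA, with 6 of 15 at 0 in each, and blood and immune markers 2.63 to 19.3 FPKM in KO and 1.43 to 1.97 FPKM in Het, with 6 of 10 at 0 in KO and 9 of 10 in Het; their part in these differences was not tested.

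Snrpc had the largest mRNA rise among the splicing factors; it encodes the U1 protein that steadies pairing with the 5′ splice site. Its mRNA was 96.2 and 114 FPKM in KO and 10.2 and 5.88 FPKM in Het oocytes (log2 3.59 ± 0.35 SE, adjusted p = 0.000693). Srsf9, a small SR protein, was at 13.6 and 15.2 FPKM in KO and 2.43 and 1.36 FPKM in Het (log2 2.43 ± 0.37 SE, adjusted p = 0.00336). Snrpd2 was at 16.5 and 22.9 FPKM in KO and 3.31 and 2.67 FPKM in Het (log2 2.36 ± 0.36 SE, adjusted p = 0.00345). Of the ring proteins it alone passed the test; it was also the member with the lowest MII to FGO footprint ratio. These 3 genes passed under every alternative run for mRNA.

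Sf3b3, the large β-propeller subunit of SF3b, was at 26.4 and 13.0 FPKM in KO and 3.77 and 2.22 FPKM in Het (log2 2.32 ± 0.44 SE, adjusted p = 0.00824). Sf3a3 was at 128 and 122.8 FPKM in KO and 42.4 and 53.7 FPKM in Het (log2 1.38 ± 0.30 SE, adjusted p = 0.014), and Sf3b5 at 152 and 180.3 FPKM in KO and 70.1 and 92.7 FPKM in Het (log2 1.03 ± 0.30 SE, adjusted p = 0.0473). With them 3 of 9 SF3 subunits rose and none fell, against 18.9% and 0.62% of all genes. With median scaling only Sf3b3 of the 3 passed (adjusted p = 0.121 for Sf3a3 and 0.36 for Sf3b5). Sf3b1 was at 80.0 and 71.7 FPKM in KO and 121 and 119 FPKM in Het (log2 -0.66, adjusted p = 0.149). Among SR proteins Srsf2, which also acts in transcription elongation, was at 111 and 64.2 FPKM in KO and 30.0 and 23.1 FPKM in Het (log2 1.64 ± 0.36 SE, adjusted p = 0.015). Srsf1, the founding SR protein, was at 8.43 and 6.53 FPKM in KO and 3.30 and 1.38 FPKM in Het (log2 1.40 ± 0.41 SE, adjusted p = 0.0449). Snrpa, which binds a stem-loop of U1 RNA, was at 43.7 and 30.4 FPKM in KO and 10.9 and 17.0 FPKM in Het (log2 1.36 ± 0.36 SE, adjusted p = 0.033). Hnrnpd, also called AUF1, binds AU-rich elements; it was at 5.53 and 5.80 FPKM in KO and 1.58 and 1.66 FPKM in Het (log2 1.35 ± 0.33 SE, adjusted p = 0.0235). Of these, Sf3b5 and Srsf1 were the least stable, losing the call in 7 of 10 and 7 of 9 alternatives. Hnrnpd lost it in 6 of 9 and Snrpa in 5 of 10.

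The 2 genes that fell were Srsf4 and Hnrnpf. Srsf4, a long SR protein, was at 13.7 and 9.72 FPKM in KO and 37.7 and 23.5 FPKM in Het (log2 -1.29 ± 0.37 SE, adjusted p = 0.0423). Hnrnpf, which binds guanosine tracts, was at 89.99 and 60.2 FPKM in KO and 212 and 135 FPKM in Het (log2 -1.19 ± 0.35 SE, adjusted p = 0.0473). Both calls were lost without KO library 2 (adjusted p = 0.251 for Srsf4 and 0.314 for Hnrnpf) and without Het library 1 (0.191 and 0.172).

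Footprints were compared to ask whether translation of these messages also differed. In KO oocytes 5 of 51 tested splicing factors had higher footprints and none had lower ones (limma, adjusted p below 0.05, n = 3 each), against 3.21% and 0.328% of all 8526 genes. The 5 were Snrpc, Srsf9, Srsf2, Hnrnpd and Sf3a3, and all 5 are among the 10 whose mRNA rose. No splicing factor was lower at an unadjusted p below 0.05 either. The median log2 change was 0.62 for splicing factors and 0.27 for all genes. Without KO library 1 these medians were 0.25 and 0.14, and without KO library 2 they were 0.90 and 0.34. Groups did not overlap for 12 genes higher and 2 lower in KO, against 16.8% and 7.69% of all genes. With the replicate number as a block, which pairs these libraries, 7 genes rose, against 2.83% of all, and the added genes were Hnrnpu and Hnrnpul2.

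Snrpc had footprints of 164, 58.5 and 93.7 FPKM in KO and 6.85, 0 and 3.91 FPKM in Het libraries 1, 2 and 3 (log2 4.85 ± 0.86 SE, adjusted p = 0.0343). Srsf2 had 381, 360.0 and 205 FPKM in KO and 5.45, 10.7 and 35.1 FPKM in Het (log2 4.45 ± 0.67 SE, adjusted p = 0.0234). Srsf9 had 49.1, 10.4 and 31.7 FPKM in KO and 1.35, 0 and 0 FPKM in Het (log2 4.32 ± 0.78 SE, adjusted p = 0.0365). For each of them the lowest KO library lies above the highest Het library. The estimated reads behind them were few in Het, with 241 reads in KO and 9 in Het for Srsf2 and 45 in KO and 1 in Het for Srsf9, whose ratio per recovered read was 38.0 (95% exact interval 6.49 to 1536, counting error only). Hnrnpd had 299, 624 and 285 FPKM in KO and 16.0, 47.0 and 24.6 FPKM in Het (log2 3.77 ± 0.52 SE, adjusted p = 0.0202). Sf3a3 had 189, 242 and 254 FPKM in KO and 59.0, 34.2 and 22.4 FPKM in Het (log2 2.63 ± 0.44 SE, adjusted p = 0.0291), from 517 estimated reads in KO and 88 in Het. For both of these, too, the lowest KO library lies above the highest Het library.

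None of the 5 calls held without a KO library. Without KO library 1, 2 or 3 there were 0 calls among splicing factors and 0 among all genes, although the log2 changes of the 5 genes stayed between 2.55 and 5.21. Without Het library 2 there were 2 calls, and without Het library 3 there was 1. Hnrnpu, a nuclear scaffold protein, had 267, 612 and 288 FPKM in KO and 69.0, 190.3 and 79.6 FPKM in Het (log2 1.82, adjusted p = 0.128 without and 0.0333 with the block). Its relative Hnrnpul2 had 152, 452 and 303 FPKM in KO and 51.4, 111 and 72.5 FPKM in Het (log2 1.87, adjusted p = 0.113 without and 0.0374 with the block). Srsf1, Sf3b3, Sf3b5, Snrpa and Snrpd2, whose mRNA rose, had log2 footprint changes of 3.24, 0.81, 1.05, 0.62 and 2.60 that did not pass. Srsf4 and Hnrnpf, whose mRNA fell, had changes of -1.02 and -0.30 that did not pass either. For Srsf1 and Sf3b3 the lowest KO footprint library lies above the highest Het library, and for Srsf4 all KO libraries lie below all Het libraries. Across 50 genes the mRNA and footprint changes had a Spearman rho of 0.59, against 0.19 across 7382 genes. These changes share no libraries.

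**Figure D2:**
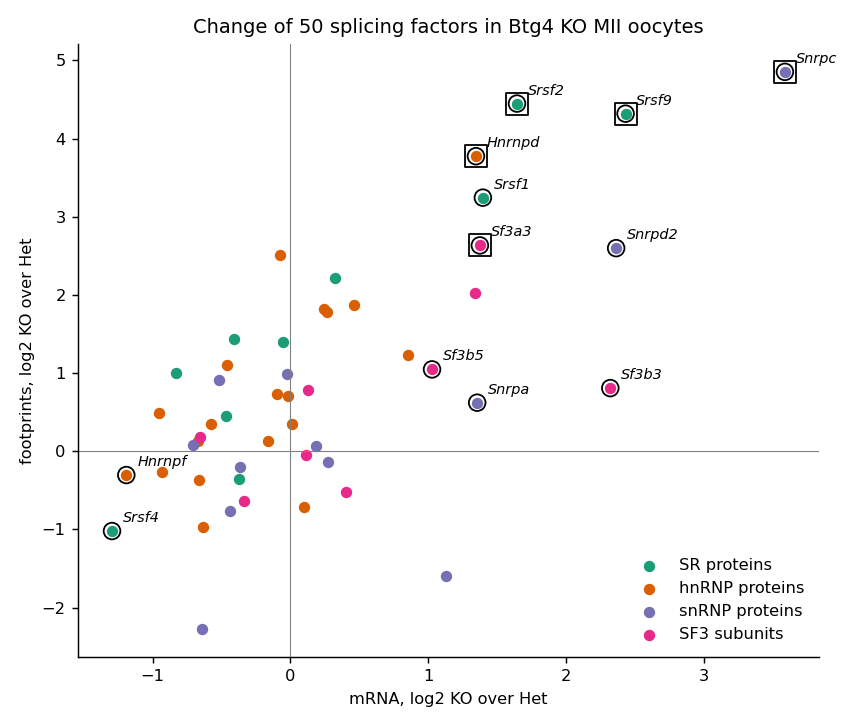
Log2 KO over Het change of mRNA (horizontal axis) and of footprints (vertical axis) for 50 splicing factors, coloured by family; circles mark genes past the mRNA test and squares those past the footprint test. The 5 squares all carry circles and lie above 2.6 on the footprint axis.

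**Figure D3:**
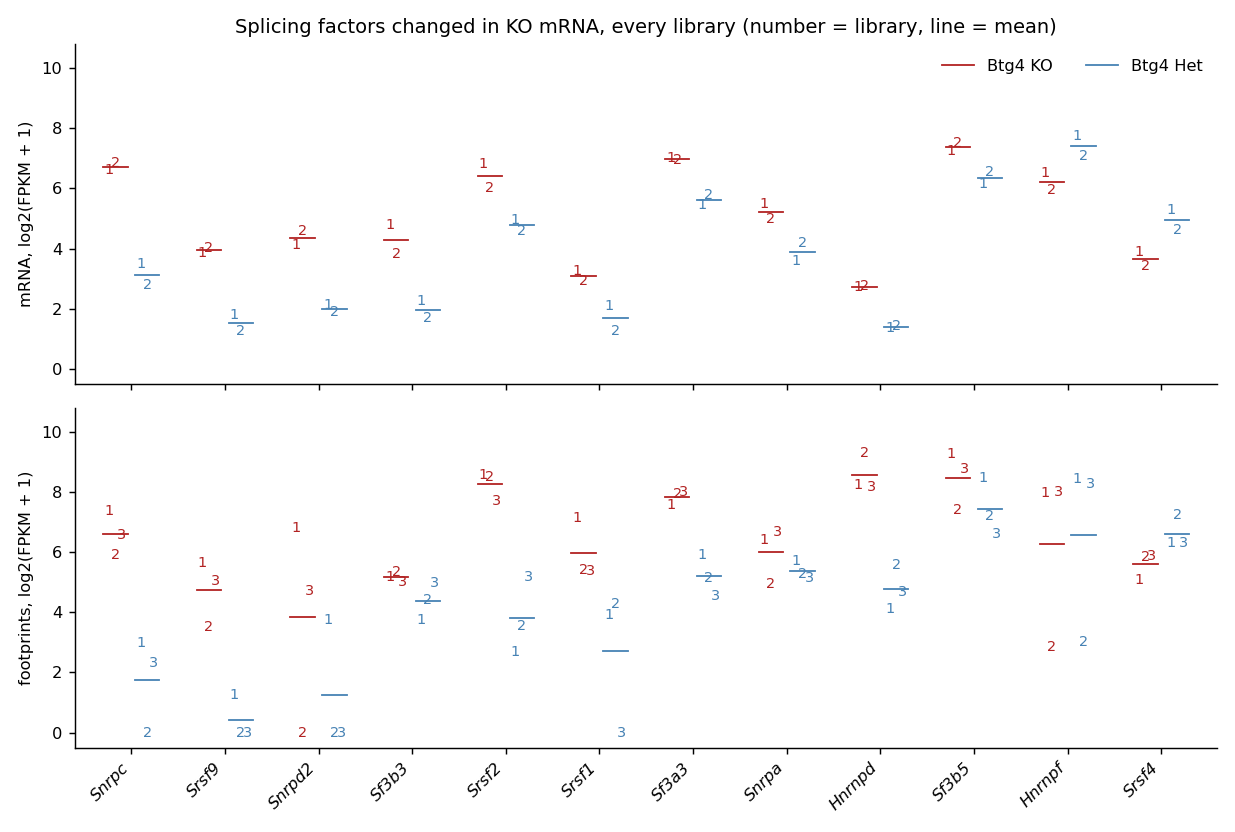
Log2(FPKM + 1) of the 12 splicing factors that passed the mRNA test in every KO (left) and Het (right) library, mRNA above and footprints below; digits number the libraries and lines mark the mean of the log2 values. For Snrpc, Srsf9, Srsf2, Sf3a3, Hnrnpd, Srsf1 and Sf3b3 every KO library lies above every Het library in both readouts, and for Srsf4 below. Hnrnpf has low footprints in both libraries numbered 2.

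The footprint libraries numbered 2 stand apart for part of these genes, in both genotypes alike. For 9 of 51 splicing factors (17.6%) each of the other libraries was over 5 times library 2, in KO and in Het, against 4.74% of 8526 genes. For libraries 1 and 3 this was so for 0 of 51. The 9 were Hnrnpa1, Hnrnpa3, Hnrnpf, Hnrnpk, Sf3b4, Snrpb, Snrpg, Srsf10 and Srsf3. Snrpg had 2609, 0 and 2708 FPKM in KO and 5839.9, 53.4 and 2516 FPKM in Het libraries 1, 2 and 3, Hnrnpk 1222, 145 and 1374 FPKM in KO and 1096, 66.5 and 719.7 FPKM in Het, and Srsf3 392, 16.6 and 373 FPKM in KO and 394, 0 and 334 FPKM in Het. The mRNA libraries numbered 2 showed no such drop, with Snrpg at 451 and 548 FPKM in KO and 666 and 902 FPKM in Het. Standard errors of the log2 footprint change were wide for these genes, 3.29 for Snrpg and 2.45 for Srsf3. Without both libraries numbered 2, an alternative added after seeing the data, 0 splicing factors and 0 genes in all passed. The count with both left out rests on 2 libraries for each genotype.

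**Figure D4:**
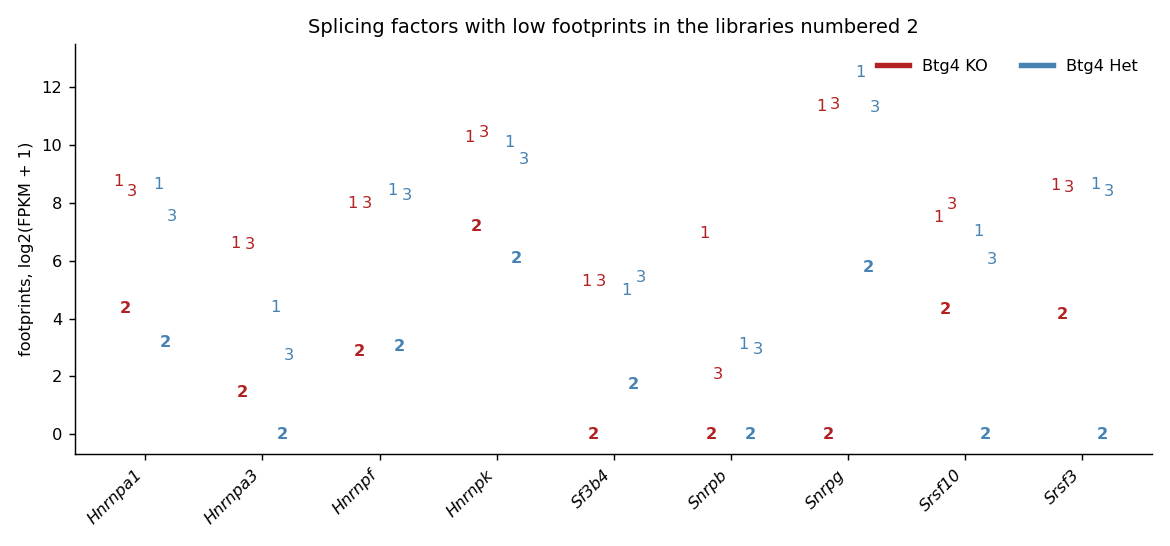
Footprints as log2(FPKM + 1) of the 9 splicing factors whose libraries 1 and 3 were over 5 times library 2 in both genotypes; digits number the libraries, KO left and Het right. Library 2, in bold, lies lowest for all 9 genes in both genotypes.

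Translational efficiency, the footprint change left after the mRNA change is taken off, was tested in 1 model over both kinds of library. None of 50 splicing factors passed, against 0.853% higher and 0.447% lower of 7382 genes. At an unadjusted p below 0.05, 4 were higher (Hnrnpa2b1, Hnrnpd, Srsf2 and Srsf11) and 0 lower, and no alternative gave a call. The median log2 change was 0.76 for splicing factors and 0.24 for all genes. This distance depends on single footprint libraries. Without Het footprint library 2 the medians were 0.30 for splicing factors and 0.26 for all genes, and without KO footprint library 2 they were 0.97 and 0.25. Hnrnpa2b1, which binds RNA bearing N6-methyladenosine in human cells, had the smallest p: its mRNA was 50.4 and 66.1 FPKM in KO and 68.7 and 93.0 FPKM in Het, while its footprints were 1270.3, 1869 and 1294 FPKM in KO and 639, 915 and 534 FPKM in Het. The efficiency change was log2 1.56 ± 0.48 SE, adjusted p = 0.179.

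As levels, splicing factors had more footprints for their mRNA than the typical gene in both genotypes. The log2 ratio of mean footprint to mean mRNA FPKM, each with 1 added, had a median of 2.06 in KO and 1.63 in Het for the 50 splicing factors, against 0.32 in KO and 0.23 in Het for all 7382 genes. The hnRNP proteins led with 3.17 in KO and 2.32 in Het, and SF3 subunits had 0.86 in KO and 1.07 in Het. Hnrnpd stood highest in Het (5.92 in KO and 3.53 in Het), followed by Hnrnph3 (3.21 in KO and 3.53 in Het), and Snrpn lowest (-0.62 in KO and -1.29 in Het). Of the 5 genes that rose in both readouts Hnrnpd was thus the highest, and Srsf9, Snrpc, Srsf2 and Sf3a3 were among the 6 lowest in Het, at -0.998, -0.98, -0.61 and -0.31. These Het levels use the same Het footprints as the KO to Het change, so the 2 are not independent. Footprint and mRNA FPKM were normalized separately, so only the distance between genes can be read from these levels.

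Poly(A) tail lengths were given as 1 value in nucleotides for each gene and library. In FGO, 42 of 52 splicing factors had a value, from 31.1 nucleotides for Hnrnpul1 to 77.3 nucleotides for Snrpf, with a median of 50.3 against 54.1 for 6353 genes. Tails of hnRNP messages were short (median 45.0, 16 genes) and those of snRNP messages long (median 59.5, 10 genes), while SR and SF3 messages stood at 50.3 (8 genes) and 54.2 (8 genes). Ring proteins spanned most of that range, with Snrpf at 77.3, Snrpd3 at 77.0, Snrpd1 at 67.3 and Snrpe at 66.5 nucleotides and Snrpd2 at 40.0. The ring protein with lower MII footprints and higher KO mRNA had the shortest FGO tail among the 6 ring proteins with a value, below Snrpb at 52.5. Across 42 splicing factors, however, FGO tail length and the MII to FGO footprint ratio had a Spearman rho of -0.02, against -0.37 across 5459 genes.

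MII libraries gave few values. In wild-type MII only Sf3b5 had one, 31.6 nucleotides, against 55.4 in FGO; of all 224 genes with both values, 30.8% were longer and 46% shorter by 10 nucleotides or more in MII. In Het MII 7 splicing factors had a value, and 4 of them were longer and 1 shorter by 10 nucleotides or more than in FGO, against 60.7% and 19.5% of 580 genes. Hnrnpk was the longest, at 164 nucleotides in Het MII and 44.9 in FGO. Snrpb2 stood at 78.9 nucleotides in Het MII and 45.0 in FGO. Among these 7 genes, Hnrnpk and Snrpb2 had the largest increase in tail, and they had the highest MII to FGO footprint ratios. The others of the 10 highest footprint ratios had no Het MII tail value, and a link between tail and footprints was not tested. Snrpf was at 96.0 in Het MII and 77.3 in FGO, Hnrnpu at 61.6 in Het MII and 41.0 in FGO, Sf3a3 at 51.3 in Het MII and 46.6 in FGO, Srsf3 at 60.9 in Het MII and 66.9 in FGO and Hnrnpul2 at 39.2 in Het MII and 51.5 in FGO. With 1 library of each kind these differences have no replicate check. The authors' merged wild-type and Het MII value was 64.3 nucleotides for Snrpf, which lies below its FGO value. It was 51.3 for Hnrnpul2 and 66.6 for Srsf3, near their FGO values, and 122 for Hnrnpk. For Snrpb2, Hnrnpu and Sf3a3 the merged value equalled the Het value. Hnrnpc and Sf3b1, also among the 10 highest footprint ratios, had a merged value too. Hnrnpc stood at 98.3 nucleotides, above its 39.1 in FGO, and Sf3b1 at 42.6, below its 52.1 in FGO.

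In KO oocytes 7 splicing factors had a value in library 1 and 11 in library 2, with 5 in both. Sf3a3 alone had a value in both KO libraries and in Het, at 54.2 and 50.5 nucleotides in KO and 51.3 in Het, and with 1 Het library, assumed to vary like the KO libraries, it did not pass (limma, adjusted p = 0.936; 0 of 272 genes passed, a background of 0%). That test cannot show that tails were alike. Its mRNA and footprints rose in KO oocytes, as given above. Hnrnpk had 207 nucleotides in KO library 1 and 164 in Het, Hnrnpu 111 in KO library 2 and 61.6 in Het, and Hnrnpul2 157 in KO library 2 and 39.2 in Het. The KO libraries differed for some genes: in libraries 1 and 2, Snrpd1 had 32.7 and 77.9 nucleotides and Sf3b5 49.6 and 30.9. Sf3b1 had 81.2 and 71.8 nucleotides and Sf3a1 38.3 and 30.3. With a value in 1 KO library, and none in Het, stood Hnrnpc at 97.8, Snrpa at 84.7, Snrpa1 at 76.2, Sf3b3 at 28.9 and Sf3b2 at 44.6 nucleotides. How many molecules lie behind a tail value is not known from the table.

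**Figure D5:**
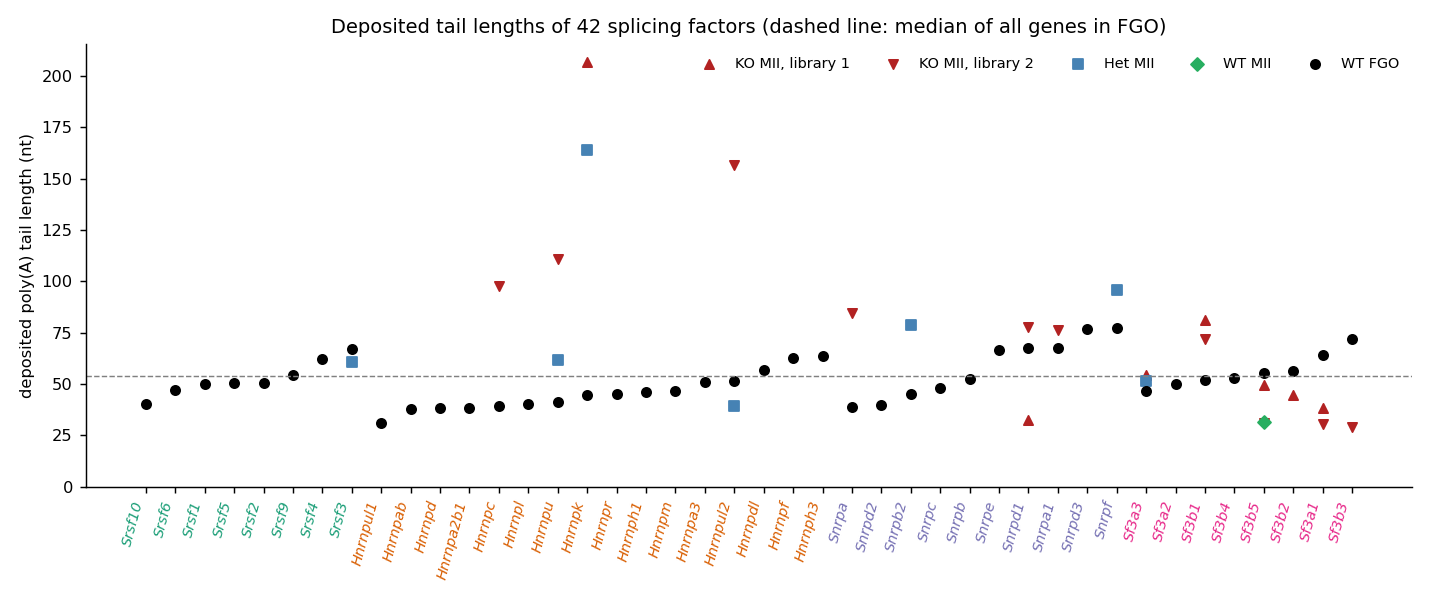
Deposited poly(A) tail length in nucleotides (vertical axis) of the 42 splicing factors with a value, ordered by family and by FGO length; triangles are KO, squares Het and the diamond wild-type MII libraries, and black circles FGO. FGO values run from 31.1 to 77.3 nucleotides, and Hnrnpk in KO library 1 lies highest at 207 nucleotides.

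Other parts of the splicing machinery were read from 5 further gene lists. In mRNA of KO oocytes 18.9% of all genes rose and 0.62% fell, with a median log2 change of 0.14. Of 17 tri-snRNP and LSM genes 8 rose and none fell, with a median log2 change of 1.08. Counts for these lists were not repeated with median scaling, under which 988 of all genes rose in place of 1677. Lsm4, part of the ring on U6 RNA, averaged 28.0 ± 13.1 FPKM in KO and 1.81 ± 2.02 FPKM in Het, log2 3.51 ± 0.57 SE, adjusted p = 0.00444 (SD, n = 2 each, limma). Lsm6 averaged 18.3 ± 3.65 FPKM in KO and 1.46 ± 0.474 FPKM in Het, log2 2.97 ± 0.37 SE, adjusted p = 0.00156, and Usp39, a tri-snRNP factor, 26.3 ± 3.75 FPKM in KO and 5.26 ± 1.18 FPKM in Het, log2 2.13 ± 0.35 SE, adjusted p = 0.00453. Of 22 U1, U2 and U5 proteins outside the name rule 4 rose and none fell, among them Txnl4a (38.5 ± 7.45 FPKM in KO and 4.76 ± 0.0439 FPKM in Het, log2 2.76 ± 0.34 SE, adjusted p = 0.00142), Snrnp40 (log2 2.29) and Rbm17 (log2 1.57). Of 11 genes of snRNP assembly and cap binding 4 rose and none fell, with the SMN complex members Gemin6 (log2 2.22) and Gemin7 (58.3 ± 13.7 FPKM in KO and 15.9 ± 1.85 FPKM in Het, log2 1.80 ± 0.33 SE, adjusted p = 0.0072) and with Clns1a (log2 1.42).

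Of 28 Prp19 complex, catalytic and exon junction genes 3 rose and none fell: Ppie (log2 3.14), Bud31 (log2 3.34) and the exon junction gene Rbm8a, which averaged 48.4 ± 18.4 FPKM in KO and 4.92 ± 0.500 FPKM in Het, log2 3.01 ± 0.38 SE, adjusted p = 0.00156. None of 30 alternative splicing regulators and SR kinases passed the mRNA test, where 1 was higher and 1 lower at an unadjusted p below 0.05 (limma). These shares stand beside 18.9% of all genes higher. In footprints, where 3.21% of all genes were higher and no gene passed without any 1 KO library, 3 of 30 Prp19, catalytic and exon junction genes rose, namely Rbm8a (293 ± 88.5 FPKM in KO and 11.5 ± 8.97 FPKM in Het, log2 4.74 ± 0.57 SE, adjusted p = 0.014; n = 3 each), Crnkl1 (log2 1.97) and Aqr (log2 2.94), and 2 of 31 regulators, Matr3 (215 ± 44.4 FPKM in KO and 20.4 ± 7.56 FPKM in Het, log2 3.37 ± 0.40 SE, adjusted p = 0.014) and Rbm39 (log2 2.17). No gene of the remaining lists passed the footprint test. For efficiency Matr3 rose (log2 3.38, adjusted p = 0.0259) and Bud31 fell (log2 -3.87, adjusted p = 0.0421), and no other listed gene passed. Neither passed with the replicate number as a block.

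Between stages these lists went both ways. At least 2-fold higher in MII and at least 2-fold lower were 7 and 9 of 23 U1, U2 and U5 proteins, 4 and 8 of 18 tri-snRNP and LSM proteins, 10 and 6 of 32 Prp19, catalytic and exon junction genes, 13 and 7 of 31 regulators and kinases, and 2 and 5 of 11 assembly and cap-binding genes, against 27.8% and 31.6% of all genes. With each oocyte scaled to the median of its values above 0 these counts were 4 and 10 of 23, 1 and 12 of 18, 6 and 14 of 32, 6 and 14 of 33 and 1 and 9 of 12, against 13.0% and 55.5% of all genes. Medians of the log2 ratio of the values as deposited were 0.25, -0.84, 0.02, 0.56 and -0.77 in that order of lists, against -0.18 for all genes. Magoh, the exon junction partner of Rbm8a, averaged 786 ± 421 FPKM in MII and 24.5 ± 27.0 FPKM in FGO, log2 ratio 4.95, and Ptbp1, which binds polypyrimidine tracts, averaged 90.7 ± 50.2 FPKM in MII and 5.43 ± 6.28 FPKM in FGO, log2 ratio 3.83. Smn1, the core of the assembly complex, averaged 296 ± 196 FPKM in MII and 27.0 ± 32.3 FPKM in FGO, log2 ratio 3.40. On the low side Lsm4 averaged 9.97 ± 17.2 FPKM in MII and 62.2 ± 44.1 FPKM in FGO, log2 ratio -2.53, and Rbm5, a regulator of alternative splicing, 0.639 ± 1.99 FPKM in MII and 16.5 ± 14.9 FPKM in FGO, log2 ratio -3.41. Luc7l2, Snw1 and Strap had the lowest ratios of the remaining lists, at -2.89, -2.36 and -2.19, and Prpf6 and Snrnp27 the highest, at 3.0001 and 2.71. When oocytes listing hemoglobin were left out, the ratio of Luc7l2 was -0.23.

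Members of the 2 comparisons can be set side by side, since the single oocytes and the Btg4 libraries share no samples. Of the 10 splicing factors whose mRNA rose in KO, 7 had an MII to FGO ratio below 0, as had 20 of 51 splicing factors and 53.6% of all genes. With each oocyte scaled to the median of its values above 0 it was 9 of the 10, 30 of 51 and 74.9%. As deposited the exceptions were Sf3a3 at 1.38, Snrpa at 1.02 and Hnrnpd at 0.32. Without MII oocytes 2 and 4 the ratio of Hnrnpd was 0.01, and over all oocytes MII was higher in 51.7% of pairs. Snrpa was above 0 in 13 of 20 MII and 11 of 18 FGO oocytes, with MII higher in 60% of pairs. The other pairs include those with both oocytes at 0. Both genes whose mRNA fell had ratios above 0, Hnrnpf at 1.74 and Srsf4 at 0.83. Over 50 splicing factors the MII to FGO ratio and the mRNA change had a Spearman rho of -0.48, and over 7269 genes it was -0.57.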

How the data were processed

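Ribosome footprints of single oocytes, footprints and mRNA of Btg4 oocytes, and poly(A) tails were taken from the authors' deposited tables. The authors deposited FPKM for footprints and mRNA; cutadapt 1.14, Bowtie2 2.2.2, STAR 2.5.3a, Cufflinks 2.2.1 and Trim Galore 0.4.2 and the builds mm9 and hg19 are named per the submitters' processing notes, with no order. The sources used here give no strand setting. Tail lengths are values in nucleotides, other than FPKM, as the authors deposited them, and a listed 0 was read as no value. Of 105 samples in the labels 53 had values, and 52 were not used here. Repeated identical rows were dropped (231 and 1).

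FPKM were set to log2(FPKM + 1). Genes averaging 1 FPKM or more were tested with limma 3.58.1 in R 4.3.3 (trend, Benjamini-Hochberg adjusted p below 0.05), KO against Het. Efficiency was an interaction term over both kinds of library. Code was tested on simulated data. The deviations of same-numbered KO and Het footprint libraries had correlations of 0.255, 0.423 and 0.162. The main fits did not use this pairing, which entered only where the replicate number is given as a block. Estimated reads come from the steps of low FPKM values, for 9869 genes, in which 98.3% of values below 12 reads came out whole within 0.03 reads; intervals cover counting error only. The genes named were those past a test, the 10 highest and 10 lowest single-oocyte ratios, the 5 highest footprint means of each stage, those with an MII tail value and, of each other list, up to 3 a direction with the lowest adjusted p and the extreme ratios. RefSeq names pseudogene copies for some of these families (Srsf3-ps, for example), and reads shared with such copies are uncertain. The genes, the other lists and the tests were chosen with earlier results of these data known.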

Additional observations from a re-analysis of the deposited data

How the results depend on the processing

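Of the splicing factors' counts in mRNA (10 higher and 2 lower in KO), the higher count was 3 with no filter on low values, 5 with median scaling, 6 with quantile normalization and 6 to 11 with 1 library left out. The lower count was 1 with a pseudocount of 0.1 FPKM, 0 with no filter, 8 with median scaling, 4 with quantile normalization and 0 to 4 with 1 library left out. The mRNA libraries share only a number, with 2 pairs and a correlation of 0.627; with the replicate number as a block 13 were higher and 14 lower, against 34.2% and 17.5% of all genes. Over all genes the higher count was 1677, against 555 with no filter, 988 with median scaling, 1103 with quantile normalization and 3032 with the block; the lower count was 55, against 5, 939, 644 and 1553.

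For footprints the higher count of 5 was 3 with a pseudocount of 0.1 FPKM, 3 with no filter and 0 without both libraries numbered 2, and it spanned 0 to 5 with 1 library left out. The lower count was 0 throughout. Over all genes the higher count of 274 was 177 with the pseudocount, 145 with no filter and 155 with quantile normalization. Efficiency gave 0 splicing factors in each alternative run. With the block, footprints of 7 were higher.

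In single oocytes the 24 higher and 7 lower became 5 and 20 when scaled to the median of values above 0. Of all genes 13.0% were then higher and 55.5% lower. The counts were 4 and 20 when scaled to the 600 genes above 0 in every oocyte (added after seeing the data). Medians under the 2 scalings were -0.50 and -0.42 for splicing factors, against -1.21 and -1.22 for all genes. The lower count was 12 with the median over oocytes and 3 without the oocytes that list hemoglobin. With 1 oocyte left out, the higher count spanned 22 to 26, the lower count 4 to 8 and the median ratio 0.70 to 1.06. Srsf11 was at 1.76 with the median over oocytes and 2.09 without the hemoglobin oocytes, and Hnrnpul1 at 0.31 without those oocytes. For tails, the Het library in place of wild-type MII gave 7 genes with a value, 4 of them longer. Tail comparisons with 1 KO library left out have no residual spread and gave no test. The causes of these differences were not tested. Depth limits the genes with few estimated reads, such as Sf3a2, Sf3b6 and Srsf9, with a median of 0 reads per MII oocyte, and Srsf2, Snrpa and Sf3b5, with 1.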

Other observations

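The authors' deposited table also holds tail values merged over the KO libraries and over the wild-type and Het libraries. In the authors' deposited table, splicing factors with a merged KO value number 18 and those with a merged wild-type and Het value 13, and of the 8 with both, 5 are longer and 1 shorter in KO by 10 nucleotides or more, against 36% and 36.6% of 669 genes. In the authors' deposited table, merged KO values without one in either KO library number 5, namely Snrpe at 124, Srsf2 at 104, Snrpb2 at 91.9, Snrpc at 80.9 and Srsf9 at 65.2 nucleotides. Snrpc, Srsf2 and Srsf9 are 3 of the 5 genes that rose in both mRNA and footprints. They have no merged wild-type and Het value, so their tails cannot be compared between genotypes. Merged wild-type and Het values without one in either library also number 5 in the authors' deposited table, namely Hnrnpa3, Hnrnpc, Sf3b1, Sf3b4 and Srsf5. How values absent from each library came into the merged columns is not stated by these sources.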
